A study of Homo sapiens with 8 samples.

Results

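The 10 genes described here are 4 muscle actins (ACTA1, ACTA2, ACTC1 and ACTG2) and 6 genes of proteins that bind the actin filament: transgelin (TAGLN), the calponins CNN1 and CNN2, the tropomyosins TPM1 and TPM2, and caldesmon (CALD1). They were taken by symbol from the deposited expression tables, from a list chosen with earlier results of these data known. Each of the 10 had 1 row of its own on both days, out of 26909 symbols with a row on both. RNA-seq was done on the established embryonic stem cell line H9 (human), on gels of 400 Pa (soft) or 60 kPa (stiff). At day 3.5 the cells had been induced to mesoderm with bFGF, Activin, VEGF and BMP4, whereas at day 0 they were undifferentiated; all groups were grown on gels in feeder-conditioned medium. The 8 libraries form 4 groups of 2, induced cells on 400 Pa and on 60 kPa and undifferentiated cells on 400 Pa and on 60 kPa. The labels do not say whether the paired libraries of a group are separate cultures, so p-values may measure technical spread alone. Each table holds 1 FPKM (fragments per length of transcript, scaled to sequencing depth) for a group, so no SD stands behind a level, and the read depth is unknown.

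Actin filaments carry tension between the cell and its substrate. The muscle actins are nearly identical proteins, each best known from 1 kind of muscle: ACTA1 from skeletal muscle, ACTC1 from heart, ACTA2 from vascular and ACTG2 from visceral smooth muscle. Tropomyosins lie along the filament and, with caldesmon and the calponins, regulate its contact with myosin; transgelin cross-links filaments. Many of these genes are targets of serum response factor (SRF), which binds the CArG box. Its coactivators of the MRTF family, MKL1 and MKL2, are held in the cytoplasm by actin monomers and are released when monomers join filaments.

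Promoters of 9 of the 10 genes, 16 entries in all, were found by symbol in the RefSeq table on GRCh38.p14; TAGLN was not among them. Each entry spans 250 bases before to 50 after a start. A CArG box stood in 4 of the 9 genes, against 1.60% of the 27305 genes in the table (1.29% of its 35116 promoters). The pattern searched (CC, then 6 A or T, then GG) is the same on both strands, though the letters of a single box may differ. With 1 mismatch allowed in its core the CArG box stood in 6 of the 9 genes, against 9.88% of all genes. The TEAD motif GGAATG, searched on both strands, stood in ACTA1, ACTA2, ACTC1 and CALD1, against 16.7% of all genes. The entries with a CArG box are printed 5′ to 3′ with the box in capitals, together with that of TPM1, called on the soft gel at day 3.5, which holds none in its window. They are ACTA1 (chr1:229434045-229434344, minus strand), ACTC1 (chr15:34795500-34795799, minus strand), ACTG2 (chr2:73892758-73893057, plus strand), CNN2 (chr19:1026358-1026657, plus strand) and TPM1 (chr15:63048239-63048538, plus strand).
ACTA1: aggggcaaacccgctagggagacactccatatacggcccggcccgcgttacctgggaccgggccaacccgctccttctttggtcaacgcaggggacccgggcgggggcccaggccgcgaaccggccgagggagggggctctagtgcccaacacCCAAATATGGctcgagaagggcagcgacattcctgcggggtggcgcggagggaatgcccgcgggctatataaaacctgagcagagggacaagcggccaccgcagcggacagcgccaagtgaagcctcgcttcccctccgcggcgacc
ACTC1: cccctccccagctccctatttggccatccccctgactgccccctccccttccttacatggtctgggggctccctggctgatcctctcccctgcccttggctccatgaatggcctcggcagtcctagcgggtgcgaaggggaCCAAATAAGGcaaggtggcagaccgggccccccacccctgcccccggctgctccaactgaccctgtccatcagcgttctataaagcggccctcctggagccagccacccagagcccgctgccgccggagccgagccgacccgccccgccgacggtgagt
ACTG2: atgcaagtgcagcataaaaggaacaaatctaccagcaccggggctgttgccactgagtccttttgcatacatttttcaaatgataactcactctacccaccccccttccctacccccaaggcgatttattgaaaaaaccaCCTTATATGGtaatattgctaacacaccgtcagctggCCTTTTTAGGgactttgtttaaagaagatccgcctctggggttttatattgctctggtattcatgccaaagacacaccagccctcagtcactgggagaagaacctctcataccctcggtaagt
CNN2: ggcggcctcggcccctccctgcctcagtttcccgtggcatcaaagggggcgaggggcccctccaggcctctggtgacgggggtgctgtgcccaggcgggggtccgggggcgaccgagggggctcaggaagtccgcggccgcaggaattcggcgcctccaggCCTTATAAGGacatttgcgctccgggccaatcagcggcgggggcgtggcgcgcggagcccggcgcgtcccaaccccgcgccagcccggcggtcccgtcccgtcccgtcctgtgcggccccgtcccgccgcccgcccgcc
TPM1: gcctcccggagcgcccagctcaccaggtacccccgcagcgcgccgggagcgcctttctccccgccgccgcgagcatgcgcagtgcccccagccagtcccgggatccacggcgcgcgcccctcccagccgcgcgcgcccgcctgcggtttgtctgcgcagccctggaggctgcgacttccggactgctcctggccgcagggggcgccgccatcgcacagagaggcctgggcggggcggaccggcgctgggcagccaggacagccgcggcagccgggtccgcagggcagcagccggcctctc
The boxes began 97 bases before the start in ACTA1, 109 in ACTC1, 110 and 73 in ACTG2, and 89 in CNN2. The ACTC1 sequence is 1 of 3 entries of that gene. A match describes the letters only, and binding was not measured.

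The identity of the cells was read from marker genes. The summed level of 5 pluripotency markers was 380 FPKM on 400 Pa and 643 FPKM on 60 kPa at day 3.5, and 1197 and 1202 FPKM at day 0. That of 7 mesoderm markers was 107 and 33.0 FPKM at day 3.5, and 1.33 and 1.41 FPKM at day 0. Muscle markers were mixed. The myosin heavy chains were low in all groups: MYH11 of smooth muscle did not pass 0.517 FPKM, and MYH6 and MYH7 of cardiac muscle did not pass 0.140 and 0.0126 FPKM. The skeletal muscle factor MYOG was listed at 0 on 400 Pa and at 0.0271 FPKM on 60 kPa at day 3.5. Other genes of the same lists were not low. The troponin TNNT1 had 108 FPKM on 400 Pa and 147 FPKM on 60 kPa at day 3.5, and 81.8 and 66.1 FPKM at day 0. The atrial myosin light chain MYL7 had 10.2 and 3.24 FPKM at day 3.5, and 12.1 and 15.5 FPKM at day 0. The smooth muscle gene SMTN had 9.09 and 8.24 FPKM at day 3.5, and 5.22 and 6.26 FPKM at day 0.

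The first comparison asked how the 10 genes differed between gels in induced cells. At day 3.5 ACTC1 and TPM1 rose on the soft gel, and no member was called higher on the stiff gel. A gene was counted as tested where the authors tested it and a group reached 1 FPKM, and as called at q (a p-value adjusted over loci) below 0.05 in the authors' deposited table. Of the 10 members 9 were tested; ACTG2, at 0.0921 FPKM on 400 Pa and 0.143 FPKM on 60 kPa, was not. The authors' deposited table called 1.33% of the 18225 tested loci, 1.08% toward the soft gel, where the 2 members lie, and 0.252% toward the stiff gel. At an unadjusted p below 0.05 in the authors' deposited table, 3 members passed (ACTC1 and TPM1 higher on 400 Pa, ACTA1 lower), against 5.93% of tested loci. Of the 9, 8 lay above 0, against 51.9% of all tested loci, and 1 lay below, against 48.1%; their median change was 0.46, against 0.02 over all. A change is log2 of (FPKM + 1) on 400 Pa over (FPKM + 1) on 60 kPa, and is positive where the soft gel had more. The SE beside it is the one implied by the authors' ratio and test statistic, on the scale without the added 1. The p-values in the authors' deposited table do not follow from a normal approximation of the statistic. ACTC1 and TPM1 both have the smallest p given in the authors' deposited table, 5e-05, whereas the normal approximation gives 0.000297 for ACTC1 and 0.00263 for TPM1. Of the 243 called loci, 191 had a normal p below 0.05. Over all tested loci 193 had no finite statistic and so no normal p. How many of the 193 were called is not given here. With normal p-values adjusted anew, an alternative chosen after seeing the data, 40 loci and 0 members were called at day 3.5. Adjusted over 18032 loci in that approximation, the p was 0.0932 for ACTC1 and 0.427 for TPM1.

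ACTC1, the cardiac actin, stood at 88.3 FPKM on the soft gel, against 8.60 FPKM on the stiff gel, a 10.3-fold difference. Its change was 3.22 (SE 0.93), with q = 0.00783 in the authors' deposited table. The other muscle actins were near or below 1 FPKM. ACTA1, the skeletal actin, had 0.441 FPKM on 400 Pa and 1.64 FPKM on 60 kPa (change -0.87). Its log2 ratio without the added 1 was -1.89 (SE 1.12). Its direction was opposite to that of ACTC1, without a call and with q = 0.687 in the authors' deposited table. ACTA2, the vascular smooth muscle actin, had 1.27 and 0.416 FPKM (change 0.68, SE 2.24), an error too wide to give it a direction.

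**Figure D1:**
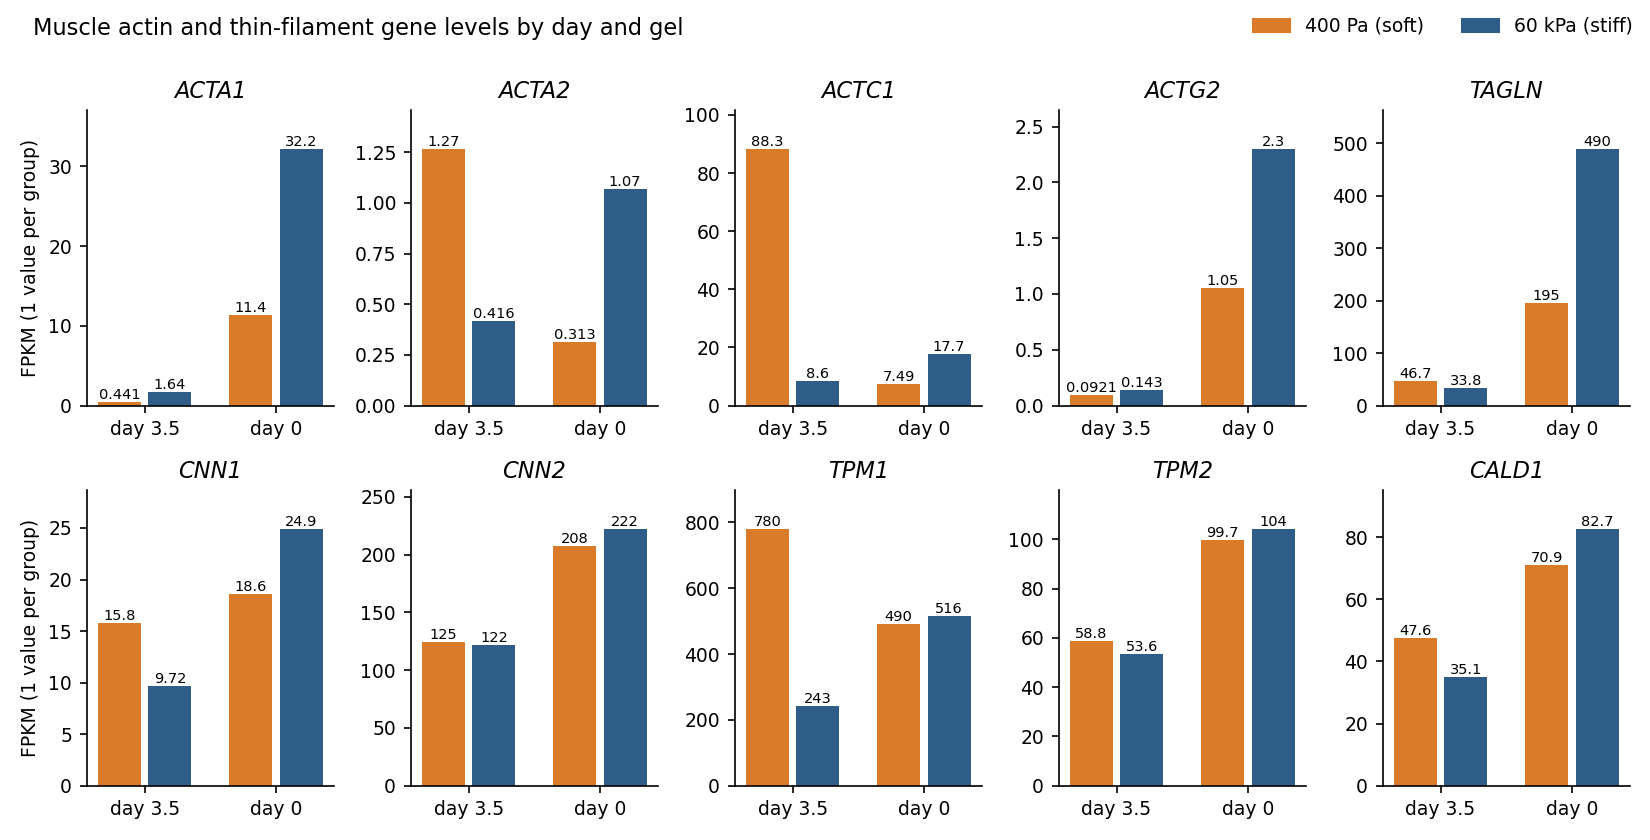
Level of each gene in FPKM on a linear axis from 0, with 1 bar per group and no error bar because 1 value per group was given; orange is 400 Pa, blue is 60 kPa, and the scale differs between panels. ACTC1 (88.3 FPKM) and TPM1 (780.4 FPKM) have their highest bar on the soft gel at day 3.5, TAGLN (489.6 FPKM) and ACTA1 (32.2 FPKM) on the stiff gel at day 0.

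TPM1 was the most abundant of the 10 genes in every group. At day 3.5 it stood at 780.4 FPKM on 400 Pa and 243 FPKM on 60 kPa, 3.21-fold apart (change 1.68, SE 0.56), with q = 0.00783 in the authors' deposited table. TPM2, the other tropomyosin, had 58.8 and 53.6 FPKM (change 0.13, SE 0.47), with an interval of -0.79 to 1.06 for its log2 ratio (normal approximation, 95%). The interval of TPM1, 0.59 to 2.78, overlaps it, and the difference between the tropomyosins was not tested.

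A second locus in the interval of TPM1, RP11-244F12.2, had 45.4 FPKM on 400 Pa and 12.6 FPKM on 60 kPa at day 3.5, and 26.0 and 26.5 FPKM at day 0. Its level thus moved with that of TPM1, but it had no call on either day. Its q in the authors' deposited table was 0.99998 at day 3.5 and 0.99983 at day 0. No source used here names a strand setting for the counting, so reads of overlapping genes cannot be told apart, and their part in the result was not tested. The interval of TPM1 in the authors' table is chr15:63334831-63364269 on hg19, and that of ACTC1 is chr15:35047285-35105124. The other locus in the ACTC1 interval, RP11-814P5.1, had 0.155 FPKM on 400 Pa and 0.0136 FPKM on 60 kPa.

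The remaining binding proteins had no call at day 3.5. TAGLN had 46.7 FPKM on 400 Pa and 33.8 FPKM on 60 kPa (change 0.46, SE 1.17). CNN1, the smooth muscle calponin, had 15.8 and 9.72 FPKM (change 0.65, SE 0.82), and CALD1 had 47.6 and 35.1 FPKM (change 0.43, SE 0.90). CNN2, the calponin found in many cell types, had 125 and 122 FPKM (change 0.03, SE 0.51). Its interval of -0.97 to 1.02 for the log2 ratio still includes a change of 0.97 in size in either direction. Another locus in the CNN2 interval, AC011558.5, was listed above CNN2 itself in all groups, at 187 and 171 FPKM at day 3.5 and 271 and 291 FPKM at day 0.

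In undifferentiated cells the comparison of gels gave calls in the opposite direction. At day 0 ACTA1 and TAGLN were lower on the soft gel, and no member was called higher there. All 10 members were tested. The authors' deposited table called 0.139% of the 17315 tested loci, 0.0751% toward the stiff gel, where the 2 members lie, and 0.0635% toward the soft gel. At an unadjusted p below 0.05 in the authors' deposited table, 3 members passed, all lower on 400 Pa, against 1.86% of tested loci. All 10 lay below 0, against 46.1% of all tested loci (53.9% lay above), and their median change was -0.53, against 0.02 over all.

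ACTA1 stood at 11.4 FPKM on the soft gel, against 32.2 FPKM on the stiff gel, and was thus 2.84-fold higher on 60 kPa (change -1.43, SE 0.41). TAGLN stood at 195 FPKM on the soft gel, against 489.6 FPKM on the stiff gel, 2.51-fold higher on 60 kPa (change -1.33, SE 0.43). Both had q = 0.0390 in the authors' deposited table, the value that goes with the smallest p given there, and neither passes q below 0.01. With normal p-values of the deposited statistic adjusted anew, 19 loci and 0 members were called at day 0. Here 145 tested loci had no finite statistic and so no normal p. Adjusted over 17170 loci in that approximation, the p was 0.194 for ACTA1 and 0.99999 for TAGLN. PCSK7, which shares the TAGLN interval (chr11:117069922-117103241, hg19), had 9.16 and 9.07 FPKM at day 0, so it did not move with TAGLN on that day. At day 3.5 PCSK7 had 15.4 FPKM on 400 Pa and 11.2 FPKM on 60 kPa, in the direction of TAGLN and without a call. Its part in the TAGLN level was not tested. ACTA1 (chr1:229566992-229569845, hg19) shared its interval with no other locus.

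The other muscle actins pointed the same way as ACTA1 at day 0 without a call. ACTC1 had 7.49 FPKM on 400 Pa and 17.7 FPKM on 60 kPa (change -1.14, SE 0.73), with an unadjusted p of 0.0182 in the authors' deposited table. ACTG2 had 1.05 and 2.30 FPKM (change -0.68, SE 1.41), and ACTA2 had 0.313 and 1.07 FPKM (change -0.66, SE 2.57). For both, 1 SE exceeds the size of the ratio.

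The binding proteins other than TAGLN had no call at day 0. CNN1 had 18.6 FPKM on 400 Pa and 24.9 FPKM on 60 kPa (change -0.40, SE 0.52). CALD1 had 70.9 and 82.7 FPKM (change -0.22, SE 1.26), and CNN2 had 208 and 222 FPKM (change -0.10, SE 0.36). TPM1 had 490.1 and 516 FPKM (change -0.07, SE 0.40), with an interval of -0.85 to 0.70 for its log2 ratio. TPM2 had 99.7 and 104 FPKM (change -0.06, SE 0.34). For these 5 genes the change was smaller than its error.

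**Figure D2:**
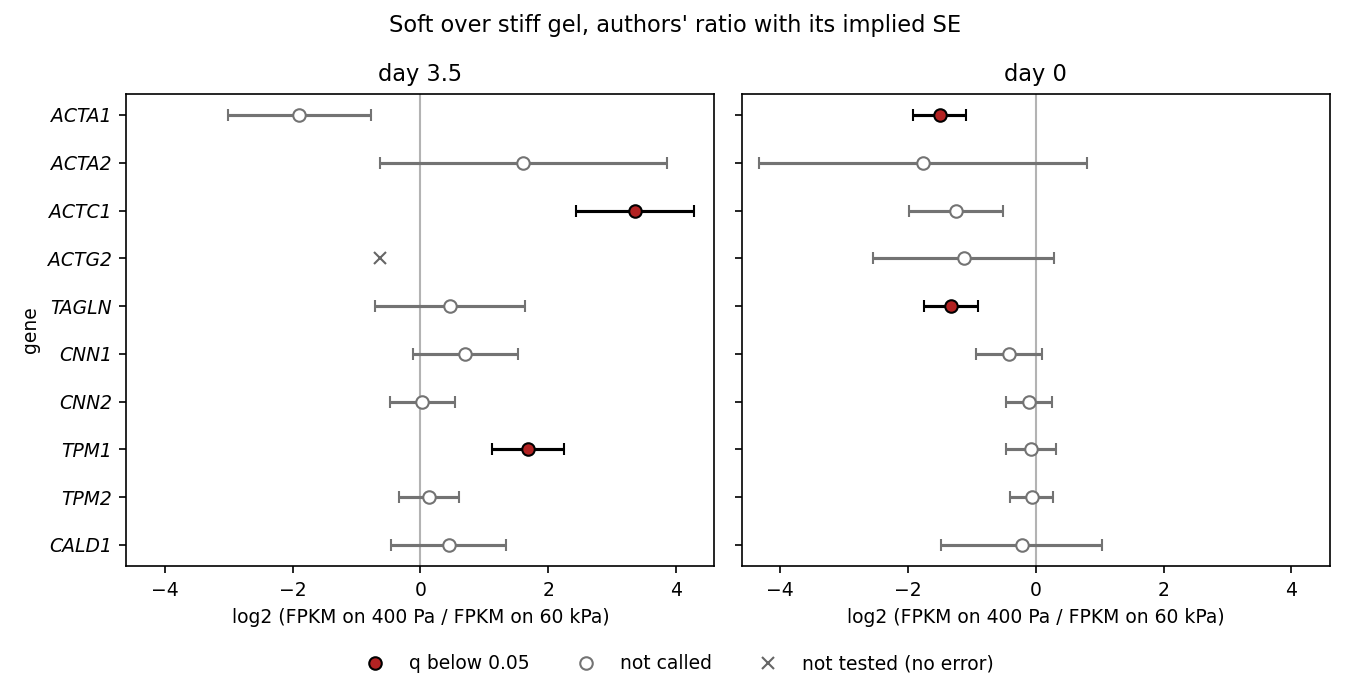
Log2 ratio of FPKM on 400 Pa over 60 kPa, without an added 1, at day 3.5 (left) and day 0 (right); whiskers are 1 SE implied by the authors' test statistic, red points are called at q below 0.05 in the authors' deposited table, and the cross is ACTG2, which was not tested at day 3.5. ACTC1 (3.36) and TPM1 (1.68) are called on the soft side at day 3.5, ACTA1 (-1.50) and TAGLN (-1.33) on the stiff side at day 0.

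Whether the effect of the gel differed between the days was tested on the authors' ratios and their implied errors (normal approximation, Benjamini-Hochberg adjustment over 14315 loci). None of the 9 members compared passed, against 0.0768% of all loci, and 2 (ACTC1 and TPM1) had an unadjusted p below 0.05. The share of all loci below that unadjusted p was not counted, so the 2 have no background beside them. The effect on ACTC1 was 3.36 at day 3.5 and -1.24 at day 0. The difference, day 3.5 minus day 0, was 4.61 (SE 1.18, interval 2.29 to 6.92), with an adjusted p of 0.110 in this normal approximation. For TPM1 the effects were 1.68 and -0.07, and the difference was 1.75 (SE 0.69), with an unadjusted p of 0.0105 and an adjusted p of 0.99998 in the same test.

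TAGLN had effects of 0.47 and -1.33, a difference of 1.80 (SE 1.25). Its interval of -0.64 to 4.24 includes 0, so the call at day 0 and the missing call at day 3.5 do not show that the gel acted differently on the 2 days. ACTA1 was lower on the soft gel on both days, at -1.89 and -1.50, with a difference of -0.39 (SE 1.19). Of the 9 members compared, 8 had a difference above 0, with ACTA1 as the exception. Only the intervals of ACTC1 and TPM1 leave out 0, and the share of all loci with a difference above 0 was not counted. The count of 8 thus does not show a shared change of the gel effect.

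Levels of the 2 days were set side by side on each gel untested, since each day has its own table. On 60 kPa all 10 genes were lower at day 3.5 than at day 0, against 50.0% of all genes, with a median log2 change of -1.15 (0.00 over all genes). On 400 Pa 7 were lower and 3 higher, against 49.9% and 50.1% of all genes, with a median of -0.65 (0.00 over all genes). TAGLN on 60 kPa stood at 33.8 FPKM at day 3.5, against 489.6 FPKM at day 0, a 14.5-fold difference. On 400 Pa it stood at 46.7 FPKM, against 195 FPKM, a 4.17-fold difference. ACTA1 was 19.6-fold lower at day 3.5 on 60 kPa (1.64 against 32.2 FPKM) and 25.7-fold lower on 400 Pa (0.441 against 11.4 FPKM). ACTG2 was at 0.0921 FPKM at day 3.5, against 1.05 FPKM at day 0, on 400 Pa, and at 0.143 against 2.30 FPKM on 60 kPa.

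The genes that were higher at day 3.5 on the soft gel were ACTC1, TPM1 and ACTA2. ACTC1 stood at 88.3 FPKM at day 3.5, against 7.49 FPKM at day 0, an 11.8-fold difference, whereas on 60 kPa it stood at 8.60 against 17.7 FPKM. TPM1 on 400 Pa was at 780.4 FPKM at day 3.5 and 490.1 FPKM at day 0, and on 60 kPa at 243 and 516 FPKM. ACTA2 on 400 Pa was at 1.27 FPKM at day 3.5 and 0.313 FPKM at day 0. The ACTA2 interval also holds STAMBPL1, at 0.704 FPKM at day 3.5 and 2.98 FPKM at day 0 on 400 Pa. FAS, in the same interval, had 0.904 and 2.30 FPKM on that gel. Both were lower at day 3.5, unlike ACTA2, and their part in the ACTA2 level was not tested. The cytoplasmic actin ACTB was lower at day 3.5, at 739.7 against 1652 FPKM on 400 Pa and 884 against 1624 FPKM on 60 kPa. ACTG1 was at 935 against 1022 FPKM on 400 Pa and 788 against 1119 FPKM on 60 kPa. Non-muscle paralogues went both ways. On 400 Pa and 60 kPa, TPM3 was lower at day 3.5 (130 against 158 and 112 against 166 FPKM). CNN3 was higher (254 against 152 and 245 against 162 FPKM). In such bulk RNA, fewer cells that express a gene and less of its RNA per cell cannot be told apart.

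**Figure D3:**
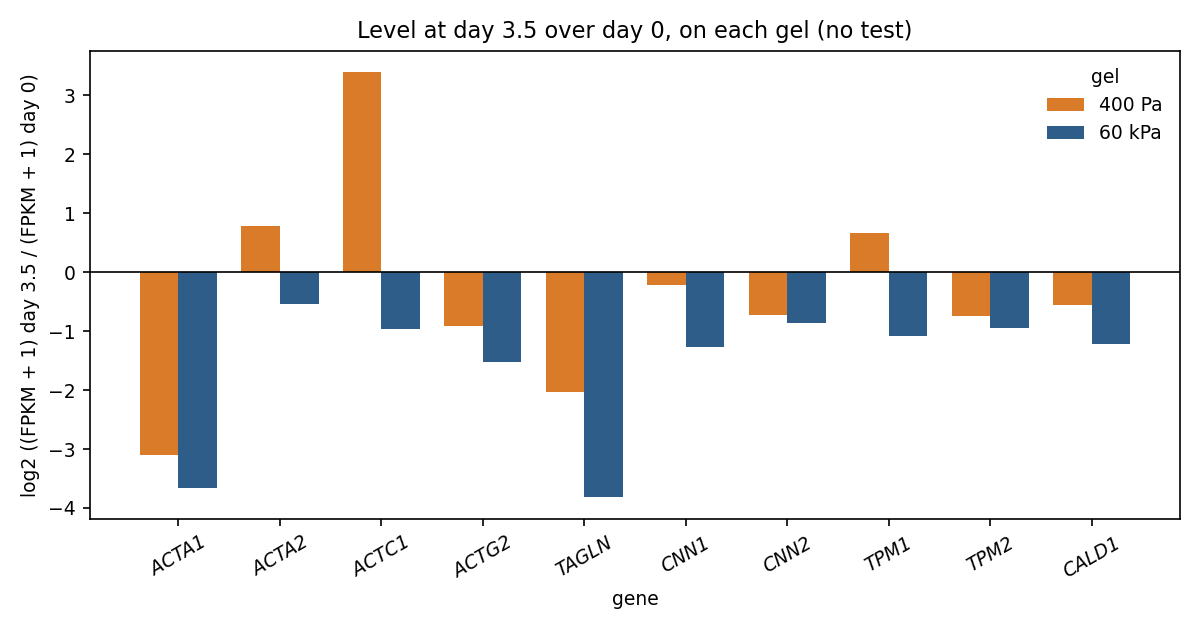
Log2 of (FPKM + 1) at day 3.5 over (FPKM + 1) at day 0 for each gene on 400 Pa (orange) and 60 kPa (blue), with no test and no error since each day has its own table. All 10 blue bars lie below 0, whereas the orange bars of ACTC1 (3.40), ACTA2 (0.79, or 1.73 with 0.1 in place of the added 1) and TPM1 (0.67) lie above.

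Because FPKM is per length, each gene was also set against its relatives as a share of the family's summed FPKM. Muscle actins made up little of the actin RNA, which was mostly ACTB and ACTG1. ACTC1 held 5.01% of the actin FPKM on the soft gel and 0.511% on the stiff gel at day 3.5, and 0.278% and 0.635% at day 0. Within the muscle actins the leading gene differed by day. ACTC1 held 98.0% of their FPKM on the soft gel and 79.6% on the stiff gel at day 3.5, whereas ACTA1 held 56.2% and 60.4% at day 0.

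TPM1 held 60.0% of the tropomyosin FPKM on the soft gel and 35.2% on the stiff gel at day 3.5, and 48.9% and 47.7% at day 0. On the stiff gel at day 3.5 the leading tropomyosin was TPM4, a non-muscle form, with 40.9%. TAGLN held 54.0% and 61.6% of the transgelin FPKM at day 3.5, and 92.3% and 96.1% at day 0. Its non-muscle relative TAGLN2 was at 33.0 FPKM on 400 Pa and 16.8 FPKM on 60 kPa at day 3.5, and at 14.3 and 18.2 FPKM at day 0. Among calponins CNN2 led at day 0, with 54.9% on 400 Pa and 54.3% on 60 kPa, whereas CNN3 led at day 3.5, with 64.4% and 64.9%. CNN1 held between 2.58% and 6.08% in the 4 groups. The shares of CNN2, CNN3, TAGLN and TAGLN2 differed more between days than between gels, whereas that of CNN1 on 400 Pa did not.

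**Figure D4:**
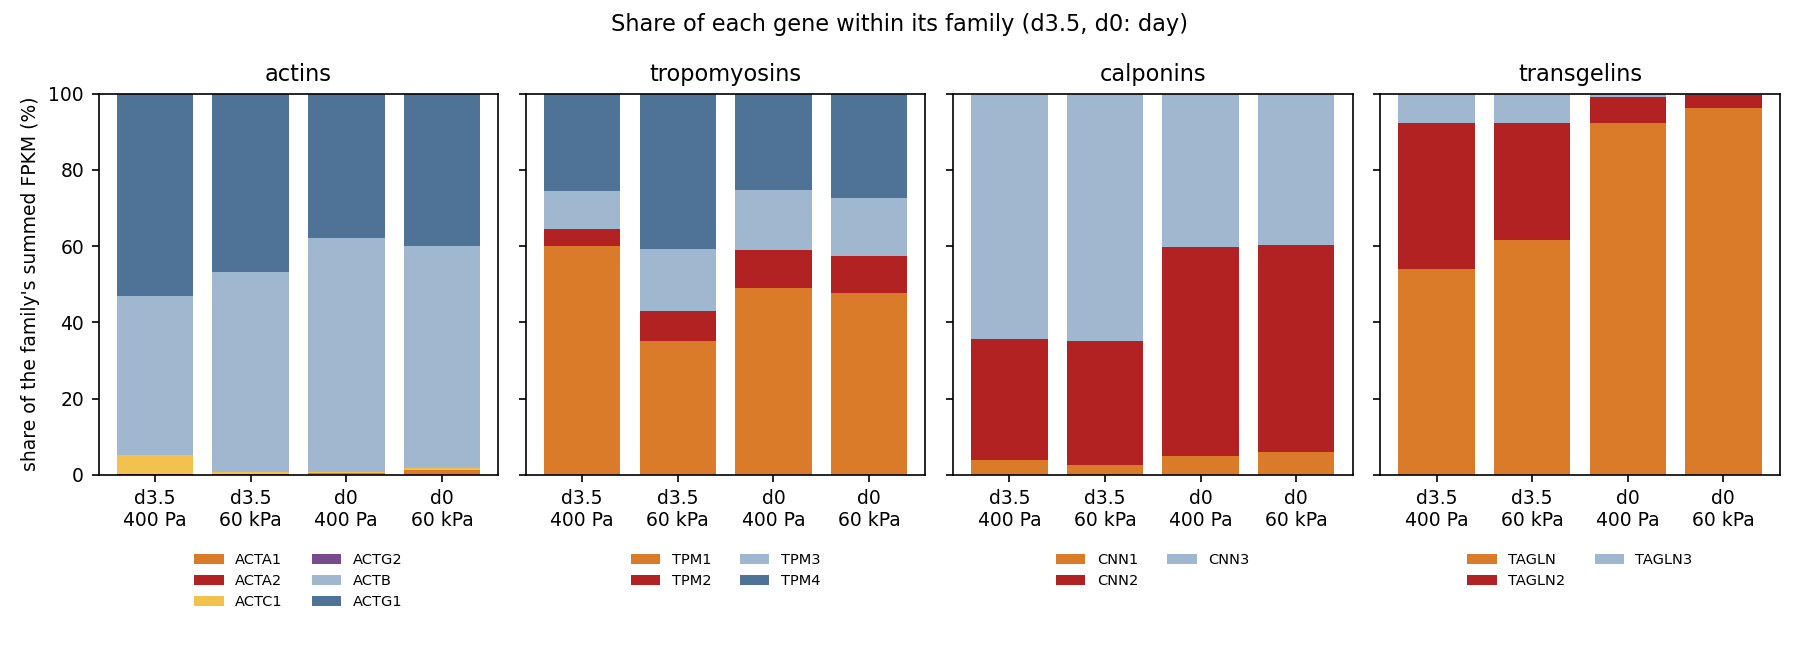
Share of each gene in the summed FPKM of its family, in percent, for the 4 groups (day 3.5 on 400 Pa and 60 kPa, then day 0 on 400 Pa and 60 kPa), with 1 value per group and no error. TPM1 takes 60.0% of the tropomyosins on the soft gel and 35.2% on the stiff gel at day 3.5, and TAGLN takes 92.3% and 96.1% of the transgelins at day 0.

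At day 3.5, 0 of 7 cytoplasmic actins and non-muscle paralogues, 0 of 7 myosin subunits, 0 of 6 sarcomere genes and 0 of 14 filament-end and monomer-binding genes were called in the authors' deposited table. The counts at an unadjusted p below 0.05 there were 1, 1, 1 and 0. Likewise 0 of 7 genes of SRF and its partners, 0 of 10 other SRF targets and 0 of 4 late smooth muscle markers were called, with 1 each at an unadjusted p below 0.05 in the authors' deposited table. At day 0 none of these 7 lists had a call, or an unadjusted p below 0.05, in the authors' deposited table (7, 7, 5, 12, 7, 10 and 2 genes tested). Over all tested loci 1.33% were called and 5.93% had an unadjusted p below 0.05 at day 3.5, and 0.139% and 1.86% at day 0, so no call in lists this short is near the background. Their medians were 0.24, 0.23, 0.16, 0.33, -0.11, 0.00 and 0.46 at day 3.5, and -0.09, 0.07, 0.05, -0.09, 0.02, -0.21 and -0.18 at day 0.

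SRF itself had 8.29 FPKM on 400 Pa and 8.06 FPKM on 60 kPa at day 3.5, and 12.4 and 12.2 FPKM at day 0. Its coactivator MKL1 had 5.28 and 4.58 FPKM at day 3.5, and 4.79 and 5.03 FPKM at day 0. MKL2 had 20.7 and 22.5 FPKM at day 3.5, and 18.3 and 16.7 FPKM at day 0. None of these regulators was called on either day. ACTB (739.7 and 884 FPKM) and ACTG1 (935 and 788 FPKM) differed in opposite directions at day 3.5, each by less than its SE. MYL9, a regulatory myosin light chain of smooth muscle, had 20.4 and 11.9 FPKM at day 3.5, and 27.0 and 45.5 FPKM at day 0. Its direction on each day was that of TAGLN, without a call. Its log2 ratio without the added 1 was 0.78 (SE 1.43) at day 3.5 and -0.75 (SE 0.73) at day 0. Further abundant genes without a call at day 3.5 were MYL12A (401 and 313 FPKM), TMSB10 (2338 and 1600.4 FPKM) and FLNA (130.1 and 128 FPKM).

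Some markers of other cell types moved with ACTC1 and TPM1 at day 3.5, and their part in the result was not tested. Over all tested loci 1.33% were called, 1.08% toward the soft gel. An unadjusted p below 0.05 in the authors' deposited table was found for 5.93% of them. Of these loci 51.9% lay above 0 and 48.1% below, with a median change of 0.02. Of 7 fibroblast markers 3 (LUM, COL3A1, DCN) had a call in the authors' deposited table, each toward the soft gel. Of the 7, 4 lay above 0 and 3 (COL1A2, PDGFRB and THY1) lay below. The list summed to 258 FPKM on 400 Pa and 72.8 FPKM on 60 kPa. LUM was at 136 and 4.69 FPKM. Of 7 mesoderm markers 1 had a call in the authors' deposited table, HAND1, at 53.8 FPKM on 400 Pa and 6.07 FPKM on 60 kPa. All 7 lay above 0 (median 0.68), 3 of them at an unadjusted p below 0.05 in the authors' deposited table. Of 5 cardiac markers 1 had a call in the authors' deposited table, MEF2C (1.44 and 0.275 FPKM), although its SE of 3.62 exceeds its log2 ratio of 2.39. All 5 lay above 0 (median 0.94), 4 of them at an unadjusted p below 0.05 in the authors' deposited table (MEF2C, MYL7, GATA4 and NKX2-5), and the list summed to 17.1 and 5.65 FPKM. NPPA was listed at 0 on 400 Pa and TBX5 at 0 on 60 kPa. The skeletal muscle list had 1 tested gene, PAX3, without a call, and summed to 2.40 and 1.63 FPKM, with MYF5 and MYOG listed at 0 on 400 Pa. All 5 pluripotency markers lay below 0 at day 3.5 without a call, 2 of them at an unadjusted p below 0.05 in the authors' deposited table.

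At day 0, where ACTA1 and TAGLN were called, the fibroblast markers summed to 159 FPKM on 400 Pa and 211 FPKM on 60 kPa. DCN was listed at 0 on 60 kPa, and THY1 made up most of the sum (135 and 191 FPKM). The late smooth muscle markers summed to 8.44 and 10.5 FPKM, the cardiac markers to 12.8 and 16.4 FPKM, and the skeletal muscle markers to 0.660 and 0.686 FPKM. GATA4 and MYF6 were listed at 0 on 400 Pa, and MYH7 on 60 kPa. At day 0 4 fibroblast, 2 late smooth muscle, 1 cardiac and 0 skeletal muscle or mesoderm markers were tested. None had a call or an unadjusted p below 0.05 in the authors' deposited table, against 0.139% and 1.86% of all tested loci.

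**Figure D5:**
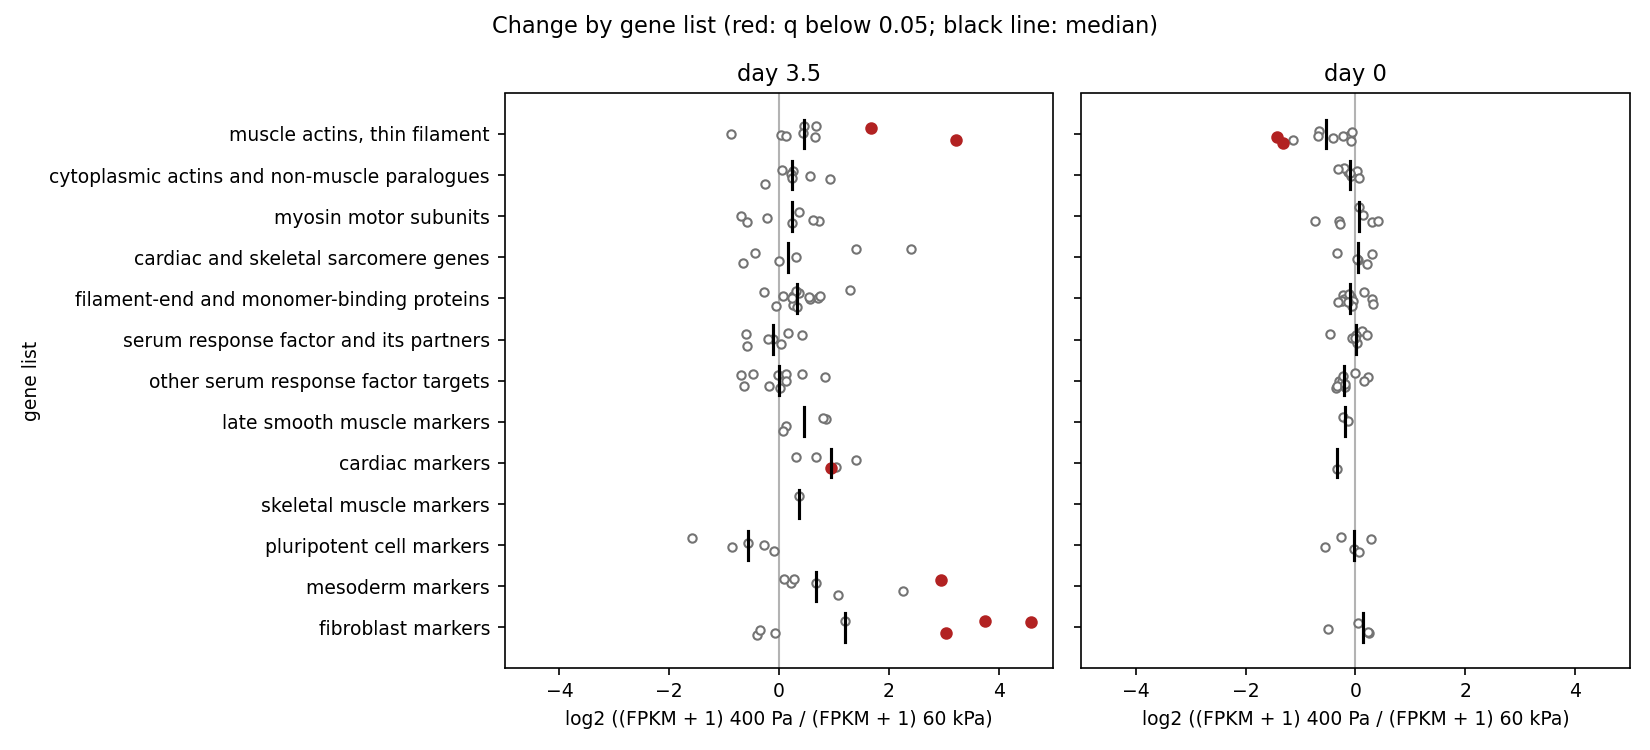
Change on the soft over the stiff gel, log2 of (FPKM + 1) on 400 Pa over (FPKM + 1) on 60 kPa, for each tested gene of 13 lists at day 3.5 (left) and day 0 (right); red points are called at q below 0.05 in the authors' deposited table, and black lines are medians. The medians of the muscle actin and thin-filament genes are 0.46 at day 3.5 and -0.53 at day 0, and the other actin cytoskeleton and SRF lists hold no red point.

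For each called member the 3 genes outside these lists with the most similar pattern over the 4 groups were taken, among 11378 genes, by Euclidean distance of centred log2(FPKM + 1) values. The nearest to TPM1 was RP11-244F12.2, the locus in its own interval (distance 0.11), followed by RNU2-27P and SHROOM1. C10orf11, CRHBP and RP11-14N7.2 were nearest to ACTC1, the first at a distance of 0.34. LINC00678 was nearest to ACTA1 (0.60), with 14.7 and 29.7 FPKM at day 3.5 and 135 and 228 FPKM at day 0, before RN7SL450P and AP000459.4. TM4SF18, GCNT4 and AF165138.7 were nearest to TAGLN, the first at a distance of 0.54. With 4 values a gene, these distances describe the groups only.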

How the data were processed

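RNA of 8 libraries was measured in 4 groups of 2. Per the submitters' processing notes, Cufflinks and hg19 were used; the sources name no version, aligner, annotation or strand setting. The authors deposited a table for each day, with 1 FPKM value per group. Beside it the authors deposited a log2 ratio (60 kPa over 400 Pa), the test statistic as a score, and its p-value and q-value. Values per library were not analysed here, so the library test foreseen was replaced by the authors' comparison.

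Ratios were turned round to 400 Pa over 60 kPa. The SE is the ratio divided by the statistic, with 95% intervals by normal approximation; the authors' p-values do not follow from it, so an interval and a call can differ. Calls need q below 0.05 and 1 FPKM in a group, on the highest-mean row of a symbol; the pseudocount of 1 understates changes of low genes. Starts on hg19 were made 1-based by adding 1. Some listed genes (MYL6, TNNT2, TTN, MYOCD and others) had no row of their own on either day. They may lie in merged loci, which was not tested. NKX2-5, NPPA and MYOG had a row at day 3.5 only. The cardiac sums therefore cover 9 genes at day 3.5 and 7 at day 0, and the skeletal muscle sums cover 5 and 4. Near-identical actin sequences may share reads.

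The members and the 12 further lists were chosen with earlier results of these data known. All members are named; of other lists the rule took up to 4 called genes, or else 2 of the highest mean, and ACTB, ACTG1, SRF, MKL1, MKL2 and MYL9. MYH6, MYH7, MYH11, MYL7, GATA4, NKX2-5, MYOG, PAX3, TAGLN2, TPM4, CNN3 and genes at 0 were added after their values were seen. The test between days and its adjustment were run on simulated data drawn from the same normal errors that the test assumes. That check cannot show whether such errors hold in these data. Promoters are from RefSeq. Software was Python 3.11.15 with pandas 2.3.3, numpy 2.4.6, scipy 1.17.1 and, for figures, matplotlib 3.10.9.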

Additional observations from a re-analysis of the deposited data

How the results depend on the processing

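The counts of called members at each day were the same with pseudocounts of 0.1 and 0.5, no FPKM minimum or one of 5, q below 0.1, a new adjustment, a minimum fold of 2, centring on the median locus and summing rows. With q below 0.01 the count of members called higher on 60 kPa at day 0 became 0 in place of 2 (ACTA1 and TAGLN), while the 2 calls of day 3.5 remained. With normal p-values of the deposited statistic, an alternative chosen after seeing the data, the count of members called higher on 400 Pa at day 3.5 became 0 in place of 2, and that of members called higher on 60 kPa at day 0 became 0 in place of 2, since for these 4 genes the normal p is larger than the deposited one. With an FPKM of at least 5 on both days, 0 members still passed the test between days, and the adjusted p of ACTC1 in that normal approximation was 0.0814. No member's direction between days turned with a pseudocount of 0.1 or centring, but with 0.1 7 of their log2 values moved by over 0.1: ACTA1 to -4.40 on 400 Pa and -4.21 on 60 kPa, ACTG2 to -2.59 and -3.30, ACTA2 to 1.73 and -1.18, and ACTC1 to 3.54 on 400 Pa. The CArG box stood in 6 member genes with 1 mismatch, in place of 4. No paired analysis was possible because the tables hold 1 value per group, and leaving out a replicate and an exact permutation test were not run for the same reason. A p that misses the threshold at the unknown depth does not show equal levels.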
